A study of Mus musculus with 36 samples.

Results

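The constitutive proteasome subunits were followed in mouse mammary tumors. They were the genes with an array probe set whose symbol begins with Psma, Psmb, Psmc or Psmd and goes on with a number, without the immunoproteasome genes Psmb8, Psmb9 and Psmb10. The rule found 36 of the 12394 genes measured, read from 65 probe sets. They were 8 genes of the 20S alpha ring (Psma1 to Psma8), 7 of the 20S beta ring (Psmb1 to Psmb7), 6 19S ATPases (Psmc1 to Psmc6), 11 other 19S subunits (Psmd1, Psmd2, Psmd3, Psmd4, Psmd6, Psmd7, Psmd8, Psmd11, Psmd12, Psmd13 and Psmd14) and 3 chaperones that help to build the 19S base (Psmd5, Psmd9 and Psmd10). Psmc3ip, which encodes a factor of meiotic recombination and no proteasome subunit, entered by its letters alone and is counted among the 36. All 36 genes stayed in every comparison, since no filter on low values was used.

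RNA of 36 tumors was measured, 1 array each. The tumors grew from 67NR or 66cl4 cells, mouse mammary tumor lines, which were placed in a mammary fat pad of a BALB/c or an NSG mouse. NSG mice are immunodeficient, without T cells, B cells or NK cells. For each line and host there were 3 control tumors, labelled Control, and 6 labelled BPTF KD, whose cells carried a retrovirally delivered short hairpin RNA against Bptf, the gene of a chromatin remodeling subunit. The paper describes its control cells as transduced too, with retroviruses that carried control hairpins. The hairpins against Bptf were 2 different ones, as were those of the controls, and the labels do not say which tumor carried which. All 67NR tumors were taken on day 21 and all 66cl4 tumors on day 28, and the number of injected cells also differed by line, so harvest day and cell number cannot be told apart from the line. Nothing in the labels names a batch. The p-values measure the spread between tumors of 1 group. In the comparisons of lines or hosts this spread also holds any change of the label's difference between them. In bulk tumor RNA fewer cells of a type and less RNA per cell cannot be told apart.

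The proteasome degrades proteins that carry ubiquitin chains. Its 20S core is a barrel of outer alpha rings, which gate the entry, and inner beta rings, of which Psmb5, Psmb6 and Psmb7 carry the proteolytic sites. The 19S cap holds a ring of ATPases that unfolds the substrate and a set of non-ATPase subunits that bind and remove ubiquitin. When cells meet interferon, Psmb8, Psmb9 and Psmb10 can replace Psmb5, Psmb6 and Psmb7 in newly built cores, and the peptides made by such immunoproteasomes feed the presentation of antigens to T cells. The transcription factor Nfe2l1 is known for raising proteasome subunit genes together when degradation is blocked.

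Promoters are shown because many 19S members differed between the cell lines and shared a short sequence feature. RefSeq promoters of the mouse build GRCm38.p6, from 250 bases before to 50 after the first start listed for a gene, were at hand for 29 of the 36 members and 27025 genes in all. Psma8, Psmb1, Psmb2, Psmb7, Psmc3, Psmd3 and Psmd7 had no entry. The 120 bases before the start are printed 5′ to 3′ on the strand of the gene for 2 members that were higher in 67NR than in 66cl4 tumors of NSG mice (Psmc2 and Psmd11) and 2 that were lower (Psmd6 and Psmc6), with a match to CCGGAAG in capitals, on either strand. This is the core bound by factors of the ETS family. In the catalytic gene Psmb5 the capitals mark TGACNNNGC, the core of the antioxidant response element, to which cap'n'collar factors such as Nfe2l1 bind.
Psmc2: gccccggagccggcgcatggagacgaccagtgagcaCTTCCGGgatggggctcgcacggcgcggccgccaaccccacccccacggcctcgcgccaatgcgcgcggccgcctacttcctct
Psmd11: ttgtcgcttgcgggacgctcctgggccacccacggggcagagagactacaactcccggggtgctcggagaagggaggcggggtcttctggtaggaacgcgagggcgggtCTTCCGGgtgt
Psmd6: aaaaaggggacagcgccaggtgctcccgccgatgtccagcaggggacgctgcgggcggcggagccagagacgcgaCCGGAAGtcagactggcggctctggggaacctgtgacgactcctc
Psmc6: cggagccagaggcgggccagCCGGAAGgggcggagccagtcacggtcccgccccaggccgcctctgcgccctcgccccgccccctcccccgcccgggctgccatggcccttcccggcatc
Psmb5: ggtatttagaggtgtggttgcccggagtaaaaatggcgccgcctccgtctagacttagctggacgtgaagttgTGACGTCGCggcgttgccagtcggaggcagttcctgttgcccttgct
The matches lay 84 to 78 bases before the start in Psmc2, which encodes a 19S ATPase, at chr5:21785155-21785274 on the plus strand. They lay 11 to 5 bases before it in Psmd11, a scaffold subunit of the 19S lid, at chr11:80428495-80428614 on the plus strand, and 45 to 39 before it in Psmd6, another lid subunit, at chr14:14120946-14121065 on the minus strand. In the ATPase gene Psmc6, at chr14:45329704-45329823 on the plus strand, the match lay 100 to 94 bases before the start. In Psmb5, at chr14:54617996-54618115 on the minus strand, it lay 47 to 39 bases before the start.

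Of 10 motifs searched on both strands, CCGGAAG was in 10 of the 29 member promoters and in 9.12% of all promoters of that length. The 10 were those of Psmc1, Psmc2, Psmc3ip, Psmc6, Psmd2, Psmd4, Psmd6, Psmd11, Psmd12 and Psmd13. None belonged to the 20S core, of which Psma8, Psmb1, Psmb2 and Psmb7 could not be searched. CTTCCG, which is part of the reverse complement of CCGGAAG and overlaps it, was in 17 member promoters and 17.17% of all. Among the 17 were Psma4, Psmb3 and Psmb4 of the 20S core. GGCGGG, the core of GC boxes, was in 21 member promoters and 35.54% of all, CCAAT in 12 and 37.92%, and GTGACG in 8 and 9.61%. TGACNNNGC was in 5 member promoters (Psmb5, Psmb6, Psmc6, Psmd9 and Psmd12) and 12.47% of all, and its longer form TGACTCAGC in 0 and 0.43%. TATAAA was in 3 and 14.16%, the E-box CACGTG in 2 and 7.24%, and GAANNTTC, a heat shock factor core, in 1 and 7.95%. These are matches of letters and not sites shown to be bound.

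Before the comparisons, some tumors and labels need a word. The mean of Bptf was lower in BPTF KD than in control tumors of every line and host, but the tumors mostly overlapped. The paper followed BPTF protein by Western blot in extracts of the 67NR and 66cl4 cells. In 66cl4 tumors of BALB/c mice its log2 level was 9.5 to 10.61 in controls and 8.68 to 9.12 in BPTF KD tumors, without overlap. Control and BPTF KD levels were 9.14 to 9.18 and 8.56 to 9.15 in 66cl4 tumors of NSG mice, 9.37 to 10.17 and 9.15 to 10.01 in 67NR tumors of NSG mice, and 9.73 to 10.31 and 8.34 to 10.68 in 67NR tumors of BALB/c mice. The differences of means were -1.08, -0.33, -0.27 and -0.06 in that order, and none passed the test (adjusted p = 0.0628, 0.584, 0.644 and 0.985), so BPTF KD below stands for the label. Krt8, a keratin of simple epithelia, was high in 66cl4 tumors (12.64 to 13.48) and lower in 67NR tumors (5.65 to 9.22), while group means of the epithelial genes Epcam and Cdh1 were low in both lines, at 4.96 to 7.26 and 4.10 to 5.50. The 6 markers of skeletal muscle averaged 10.58 in control and 10.36 in BPTF KD 66cl4 tumors of BALB/c mice, against group means of 5.38 to 7.01 elsewhere. BPTF KD replicate 3 of the 67NR tumors in BALB/c mice, at 12.12, stood apart from its group, whose lowest tumor was at 5.39.

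The members varied over the 8 groups about as much as other genes did, with no match for signal level. They were bright, with a median level of 11.24 against 7.65 over all genes. Of the 36, 34 were at or above the 70th percentile of mean level. The range of a member's group means had a median of 0.58 on the log2 scale, against 0.66 over all genes and 2.44 over Psmb8, Psmb9 and Psmb10. Psma6, an alpha ring subunit, varied least (0.20), and Psmc3ip (1.83), Psmc2 (1.34), the lid subunit Psmd7 (1.10), Psmb3 and Psmd13 (1.05 each) varied most. Within groups the SD had a median of 0.24 in the members, 0.24 in all genes and 0.42 in the 3 immunoproteasome genes. It ran from 0.10 in Psmd14, the deubiquitinase of the lid, to 0.54 in Psmd13. The members were below the median of all genes in 17 of 36 cases for the SD and 20 of 36 for the range of group means. Psma8, the alpha subunit made in testis, had a mean of 5.08 and was among the dimmest 25% of genes.

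**Figure D1:**
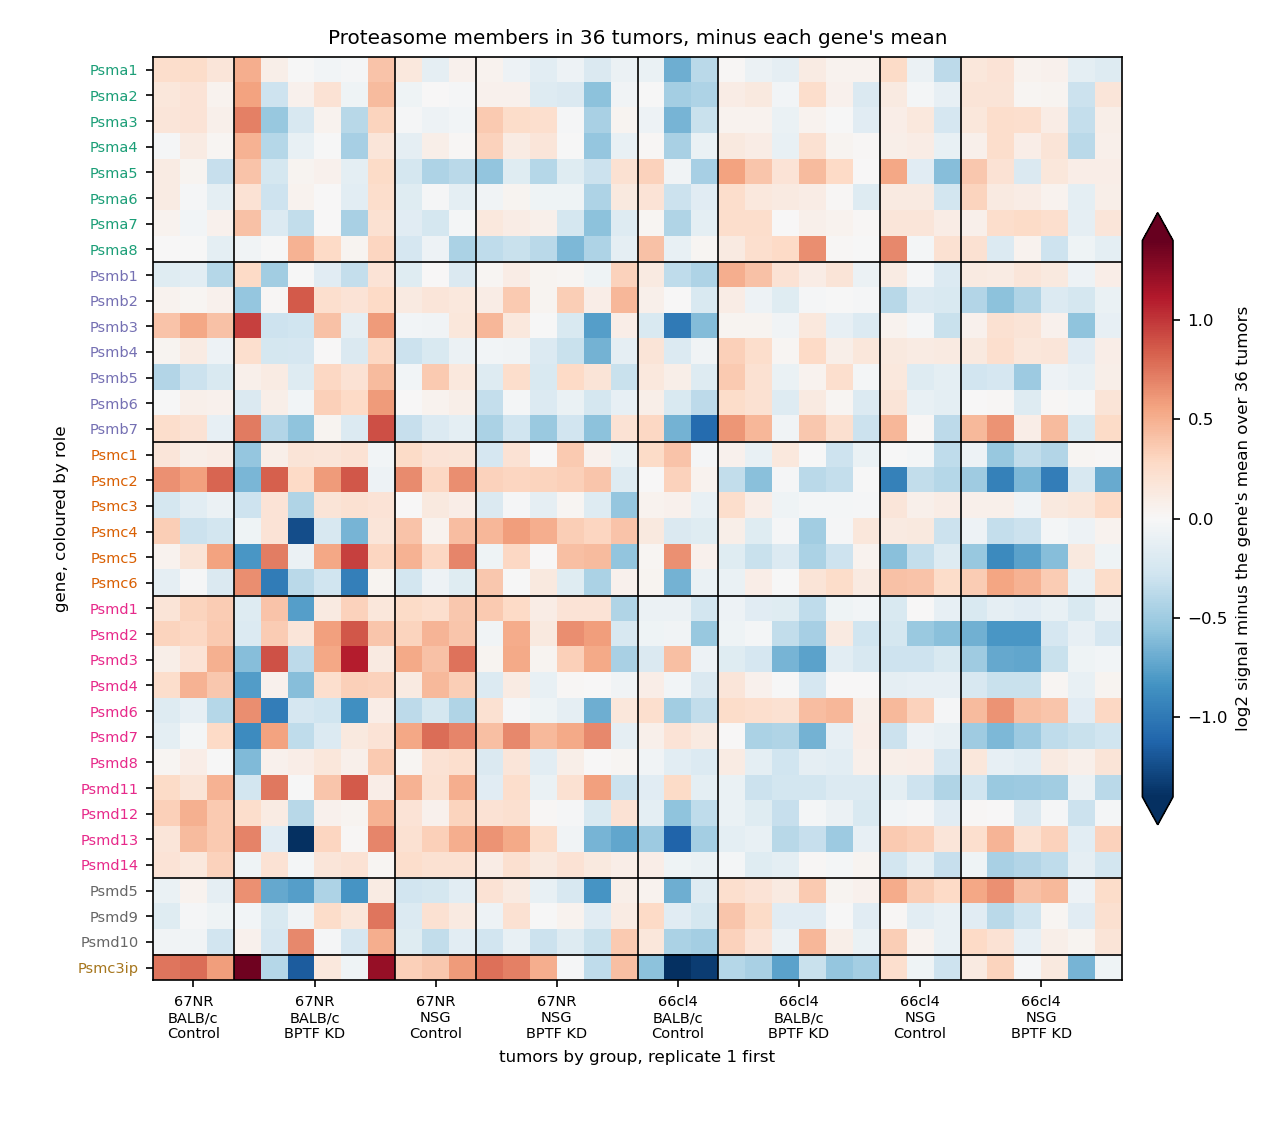
Log2 level of each of the 36 members in each of the 36 tumors, as the difference from the gene's mean over all tumors (colour scale, log2 units). Columns are tumors by group, rows are genes with names coloured by place in the particle. Group means of Psma6 spanned 0.20 and those of Psmc2 1.34, with Psmc2 high in most 67NR columns.

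The first question was whether the members differed between BPTF KD and control tumors of the same line and host. None of the 36 passed the test in any of the 4 comparisons, while 0.0% of all genes were called in 67NR tumors of BALB/c mice, 1.14% in 67NR tumors of NSG mice, 0.186% in 66cl4 tumors of BALB/c mice and 0.0% in 66cl4 tumors of NSG mice. With p-values not adjusted, 1, 1, 18 and 2 members were under 0.05 in that order, against 7.75%, 14.1%, 25.8% and 7.68% of all genes. The median difference of the members, BPTF KD minus control, was -0.04, -0.11, 0.18 and -0.02 on the log2 scale, where all genes had medians of 0.00, 0.02, 0.03 and 0.01. Differences of members ran from -0.52 to 0.47, from -0.40 to 0.26, from -0.47 to 0.70 and from -0.35 to 0.24. No gene of the immunoproteasome, the proteasome activators, the assembly chaperones, the shuttle receptors, the Nfe2l1 route, the heat shock response or the CCT chaperonin passed either.

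In 67NR tumors of BALB/c mice, Psmb5, the chymotrypsin-like subunit, had levels of 10.72, 10.83 and 10.92 in controls and 11.2, 11.25, 10.95, 11.42, 11.34 and 11.58 in BPTF KD tumors. Every BPTF KD tumor lay above every control, by a mean of 0.47 ± 0.15 (SE, n = 3 and 6, adjusted p = 0.609). It was the only member without overlap, where 3.13% of all genes lay wholly above and 2.83% wholly below the controls. Among differences below 0 the smallest p belonged to the lid subunit Psmd12, at -0.31 ± 0.18 (SE, n = 3 and 6, adjusted p = 0.693). Psmd13 was far below its group in 1 tumor, with levels of 10.45, 9.6, 7.56, 10.06, 9.77 and 10.44 in BPTF KD tumors and 9.93 to 10.2 in controls. The tumor at 7.56 was replicate 3, the one with the high muscle markers.

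In 67NR tumors of NSG mice the ubiquitin receptor Psmd4 had levels of 11.82, 12.14 and 12.03 in controls and 11.5, 11.8, 11.59, 11.71, 11.69 and 11.64 in BPTF KD tumors. All 6 BPTF KD tumors were below all controls, with a difference of -0.34 ± 0.11 (SE, n = 3 and 6, adjusted p = 0.177). Psmb6, the caspase-like subunit, had levels of 11.7 to 11.78 in controls and 11.36 to 11.67 in BPTF KD tumors, again without overlap, and differed by -0.21 ± 0.10 (adjusted p = 0.375). These were 2 members wholly below the controls and 0 wholly above, where 3.1% and 3.76% of all genes were. The smallest p above 0 belonged to Psmb1, a beta ring subunit without a proteolytic site, at 0.20 ± 0.11 (adjusted p = 0.471). Of 6 fibroblast markers 5 lay above the controls at an unadjusted p under 0.05, with a median difference of 1.23 and 1 called. For 6 epithelial markers it was 3, with a median of 0.58 and 1 called. No T cell, macrophage, muscle, fat cell, endothelial or proliferation marker was under this threshold, where 14.1% of all genes were. The part of these in the members' differences was not tested.

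In 66cl4 tumors of BALB/c mice no member was called, and the difference between the 20S and the 19S genes was not tested. All 15 genes of the 20S core had a difference above 0, with a median of 0.28 and a range from 0.02 to 0.70. Of these, 8 were at an unadjusted p under 0.05. Of all 12394 genes, 6890 were above 0, and 1533 above and 1660 below 0 were under this threshold. Of the 17 subunits of the 19S cap, 10 were above and 7 below 0, with a median of 0.01 and a range from -0.47 to 0.48, and 3 above and 4 below were under 0.05. Psmb3, a beta ring subunit, had levels of 12.39, 11.62 and 12 in controls and 12.41 to 12.75 in BPTF KD tumors, a difference of 0.58 ± 0.15 (SE, n = 3 and 6, adjusted p = 0.0768), and its other probe set gave 0.63. The ATPase gene Psmc5 had levels of 9.77, 10.39 and 9.81 in controls and 9.3 to 9.79 in BPTF KD tumors, a difference of -0.47 ± 0.15 (adjusted p = 0.0975). Without overlap were Psmb3 above the controls and Psmc2 below them (11.59, 11.9 and 11.63 against 10.99 to 11.58), where 3.78% and 4.9% of all genes were.

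The controls of this comparison were spread widely. The mean deviation of 14 subunits of the 20S core (all but Psma8) from their means over all tumors was 0.08 in control replicate 1 and -0.38 and -0.35 in the other controls, against -0.08 to 0.26 in BPTF KD tumors. Without control replicate 1, 12 members were called, 11 higher in BPTF KD tumors (Psma1, Psma2, Psma3, Psma5, Psmb1, Psmb3, Psmb7, Psmc3ip, Psmd5, Psmd6 and Psmd10) and Psmc5 lower, and 17.8% of all genes were called as well. Weighting each array by its fit gave 13 members and 25.2% of all genes. Leaving out any other tumor gave 0 members. Of 5 T cell markers 4 lay above the controls at an unadjusted p under 0.05, with a median difference of 0.98 over the list. In either direction 25.8% of all genes were under this threshold. At the same threshold 3 of 4 endothelial markers lay below the controls, with a median of -0.43 over the list. Of 6 fibroblast markers 3 lay below and 1 above at this threshold, with a median of -0.56. Actin signal at the 3′ end less that at the 5′ end, a gap that grows as RNA degrades, averaged 1.12 in controls (0.80 to 1.31) and 1.38 in BPTF KD tumors (1.27 to 1.56). The same gap of Gapdh averaged 0.217 in controls (0.14 to 0.33) and 0.205 in BPTF KD tumors (0.17 to 0.27). The part of these in the members' differences was not tested.

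In 66cl4 tumors of NSG mice the differences were small. Psmd7 had the smallest p, with levels of 9.72, 9.95 and 9.92 in controls and 9.39 to 9.75 in BPTF KD tumors, a difference of -0.27 ± 0.10 (SE, n = 3 and 6, adjusted p = 0.589). Above 0 it was Psmb1, at 0.13 ± 0.09 (adjusted p = 0.824). No member was wholly above or wholly below the controls, as were 3.32% and 1.05% of all genes.

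**Figure D2:**
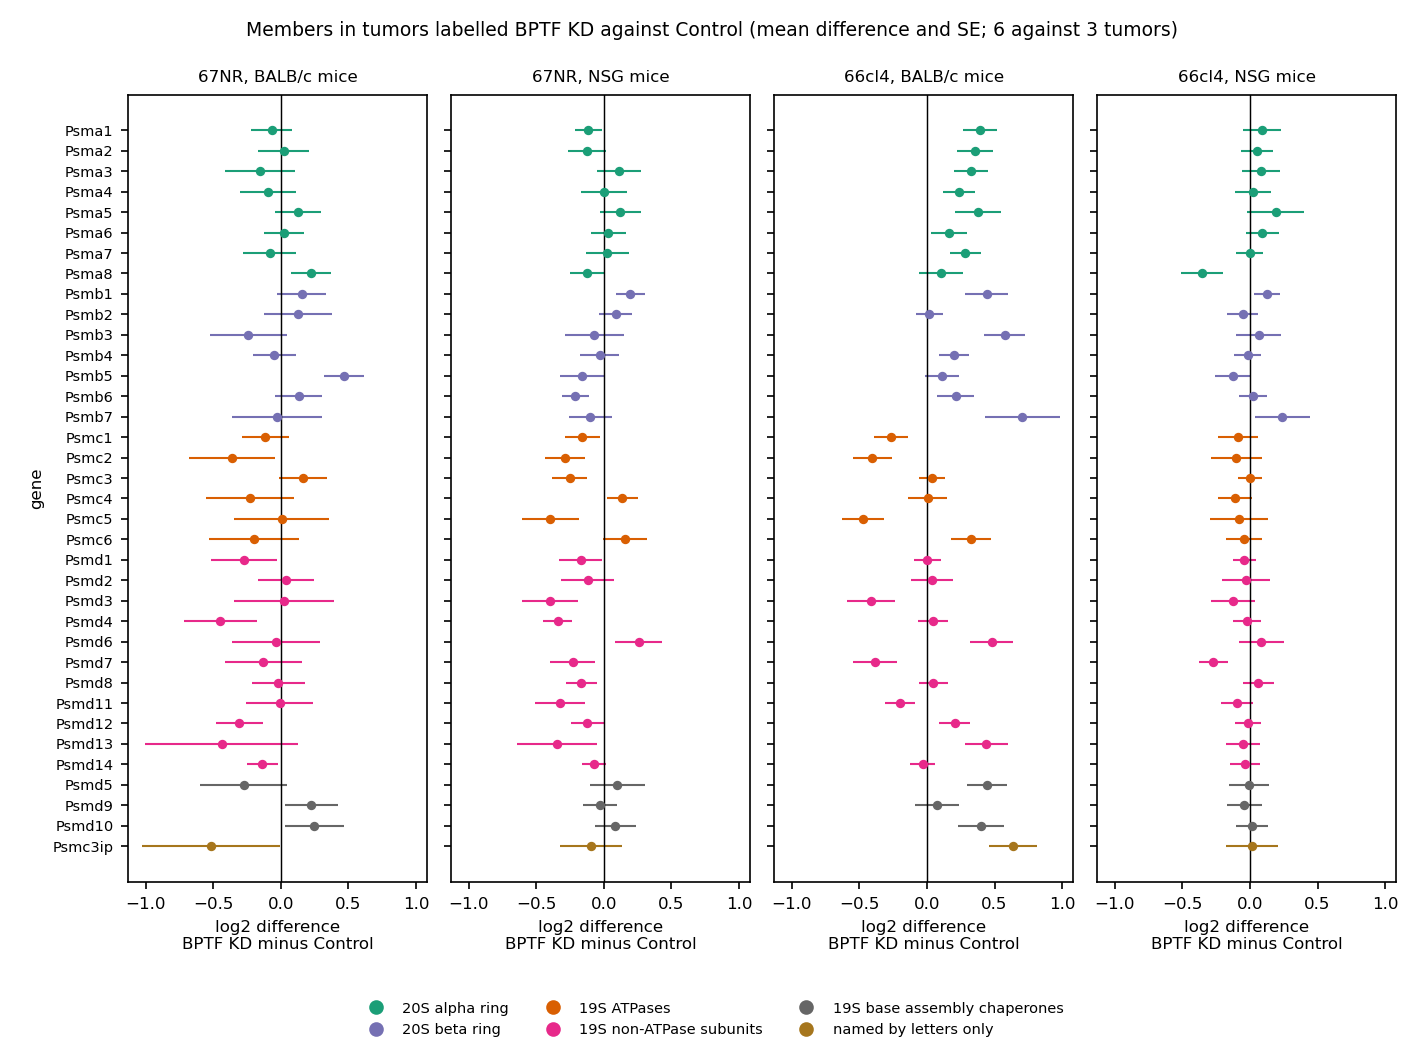
Difference of mean log2 level, BPTF KD minus control, for each member in the 4 pairs of line and host (points, with bars of 1 SE from the fit; 3 control and 6 BPTF KD tumors each). The points lie around 0. In 66cl4 tumors of BALB/c mice all 15 genes of the 20S core are above it, as were 6890 of all 12394 genes.

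The proteolytic subunits and their interferon-induced counterparts were compared side by side. Psmb5 was at 11.1 to 11.5 in control and 10.82 to 11.41 in BPTF KD 67NR tumors of NSG mice, and at 10.95 to 11.28 and 11.04 to 11.5 in 66cl4 tumors of BALB/c mice. In 66cl4 tumors of NSG mice it was at 10.95 to 11.28 and 10.62 to 11.22. Psmb6 lay between 11.33 and 12.29 in every BALB/c tumor and between 11.36 and 11.88 in every NSG tumor. Psmb7, the trypsin-like subunit, had levels of 10.57, 9.62 and 9.21 in control 66cl4 tumors of BALB/c mice and 9.98 to 10.9 in BPTF KD ones, with a difference of 0.70 ± 0.28 (SE, adjusted p = 0.146). In the other groups it ran from 9.71 to 11.19.

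The immunoproteasome genes spread over a wider range. Psmb8, the counterpart of Psmb5, was at 10.23 to 10.81 in control and 11.14 to 12.85 in BPTF KD 67NR tumors of BALB/c mice, and at 10.83 to 11.29 and 11.59 to 12.71 in 66cl4 tumors of BALB/c mice. Psmb9, the counterpart of Psmb6, was at 9.75 to 10.33 and 10.69 to 12.81 in the former and 9.84 to 10.37 and 10.75 to 11.67 in the latter. None of the groups overlapped, and the differences were 1.66 ± 0.37 and 1.10 ± 0.25 in Psmb8 and 1.83 ± 0.43 and 1.16 ± 0.23 in Psmb9, with adjusted p = 0.524, 0.0668, 0.533 and 0.0648. In NSG mice the differences of Psmb8 were 0.01 and -0.07 in 67NR and 66cl4 tumors, and those of Psmb9 0.32 ± 0.19 and -0.16 ± 0.10 (adjusted p = 0.503 and 0.753). Psmb10, the counterpart of Psmb7, differed by 1.48 ± 0.42 and 0.26 ± 0.18 in 67NR and 66cl4 tumors of BALB/c mice (adjusted p = 0.609 and 0.398). In 67NR tumors of NSG mice it differed by 0.43 ± 0.13, with 6 of 6 BPTF KD tumors above all controls (adjusted p = 0.166), and in 66cl4 tumors of NSG mice by -0.02 ± 0.09 (adjusted p = 0.985).

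Within a tumor of 67NR cells in BALB/c mice, the log2 difference of Psmb8 and Psmb5 was 1.19 higher in BPTF KD than in control tumors, that of Psmb9 and Psmb6 1.69 higher, and that of Psmb10 and Psmb7 1.51 higher. Without BPTF KD replicate 3, an alternative chosen after seeing the data, these were 1.00, 1.47 and 1.12. In 66cl4 tumors of BALB/c mice the same changes were 0.98, 0.95 and -0.44, so that Psmb10 against Psmb7 ran the other way there. In NSG mice they were 0.17, 0.53 and 0.53 in 67NR tumors and 0.06, -0.17 and -0.26 in 66cl4 tumors. No test of these changes was made. In 67NR tumors of BALB/c mice 4 of 5 T cell markers lay above the controls at an unadjusted p under 0.05, with a median difference of 2.43 over the list, and their part was not tested.

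**Figure D3:**
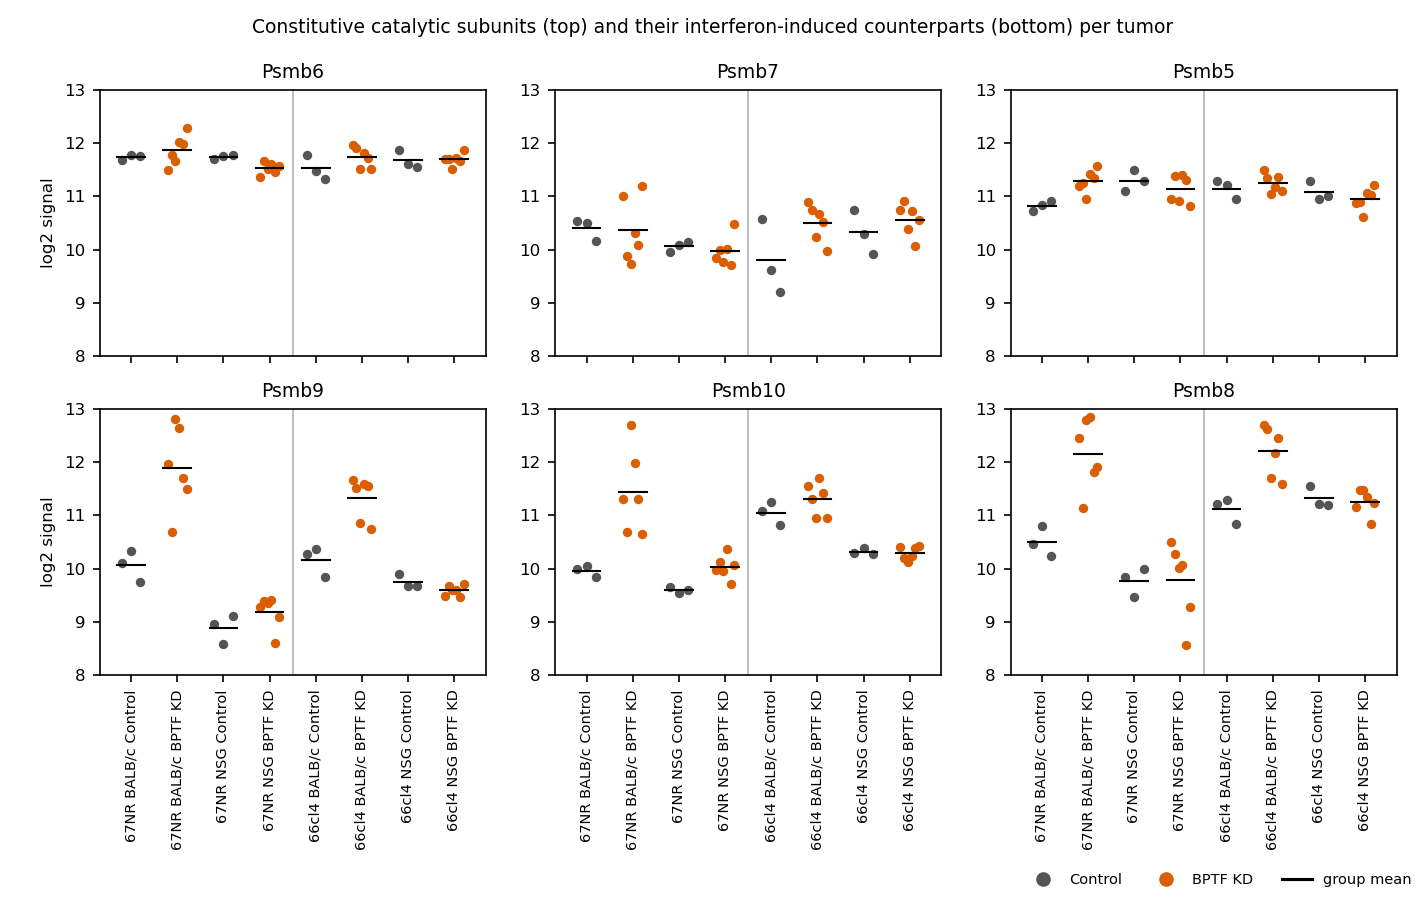
Log2 level per tumor of Psmb6, Psmb7 and Psmb5 (top row) and of Psmb9, Psmb10 and Psmb8 (bottom row) in the 8 groups, points for tumors and lines for group means, on the same axis throughout. In 67NR tumors of BALB/c mice Psmb8 ran from 10.23 to 10.81 in controls and 11.14 to 12.85 in BPTF KD tumors, while Psmb6 ran from 11.69 to 11.77 and 11.5 to 12.29.

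The second question was how the members differed between the lines, which these comparisons join with harvest day and cell number. In NSG mice, over control and BPTF KD tumors together with the label as a term, 14 of 36 members were higher and 10 lower in 67NR than in 66cl4 tumors (9 and 9), where 24.9% of all genes were higher and 27.9% lower. The difference between cap and core was not tested. Of the 17 subunits of the 19S cap, 12 were higher and 3 lower, with a median difference of 0.31. Of the 15 genes of the 20S core, 1 was higher and 5 lower, with a median of -0.09, and of the 3 assembly chaperones 2 were lower. The median of all members was 0.00 and that of all genes -0.05. Leaving out 3 members read from probe sets that can bind related transcripts, which was chosen after seeing the data, kept 12 higher and 10 lower of 33. Among 17 members with several probe sets, all of them had the same sign in 10 and some had the opposite sign in 7.

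Among the ATPases Psmc2 differed most, with a lowest, median and highest level of 11.4, 11.90 and 11.97 in BPTF KD 67NR tumors and 10.61, 10.91 and 11.36 in BPTF KD 66cl4 tumors, and 11.87 to 12.24 and 10.63 to 11.24 in controls. All 9 67NR tumors were above all 9 66cl4 tumors, by 0.97 ± 0.11 (SE, adjusted p = 8.68e-07), and its other probe set gave 0.97 as well. Psmc5 was higher by 0.65 ± 0.15 (9.97 against 9.32, adjusted p = 0.00134), Psmc4 by 0.48 and Psmc1 by 0.29. The ATPase gene Psmc6 went the other way, with a difference of -0.39 ± 0.10 (11.74 against 12.13, adjusted p = 0.00298), with -0.50 and -0.61 from its other probe sets, and so did Psmc3, at -0.20.

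Among the non-ATPase subunits Psmd7 was at 10.56 to 10.81 in control and 9.9 to 10.7 in BPTF KD 67NR tumors, and at 9.72 to 9.95 and 9.39 to 9.75 in 66cl4 tumors. Only its lowest 67NR tumor overlapped with the 66cl4 tumors, and the difference was 0.86 ± 0.09 (SE, n = 9 and 9, adjusted p = 3.17e-07). Psmd2, the large scaffold of the 19S base, was at 10.48 to 11.36 in 67NR and 9.89 to 10.59 in 66cl4 tumors, higher by 0.78 ± 0.13 (adjusted p = 4.36e-05). The lid subunit Psmd3 was at 8.68 to 9.89 and 8.41 to 9.1, higher by 0.65 ± 0.13 (adjusted p = 0.000356). Psmd11, Psmd14, Psmd1, Psmd4 and Psmd12 were higher by 0.53, 0.44, 0.31, 0.22 and 0.19. Psmd14 had no overlap, at 12.14 to 12.3 against 11.6 to 11.99. The share of all genes without overlap between the lines was not counted in either host. Psmd13 (-0.14, adjusted p = 0.495) and Psmd8 (0.02, adjusted p = 0.834) were not called. Psmd6 was called lower, with a difference of -0.48 ± 0.12 (11.65 against 12.13, adjusted p = 0.00208), with -0.44 from its other probe set.

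All 8 genes of the alpha ring had differences below 0, as had 7019 of all 12394 genes. Psma5 (-0.33), Psma7 (-0.27) and the dim Psma8 (-0.38 ± 0.10, adjusted p = 0.00285) passed. In the beta ring Psmb7 (-0.48 ± 0.13, 10.00 against 10.48, adjusted p = 0.00442) and Psmb4 (-0.33) were lower. Psmb2 alone was higher, at 10.92 to 11.35 in 67NR and 10.31 to 10.79 in 66cl4 tumors, without overlap, by 0.51 ± 0.08 (adjusted p = 1.59e-05). Psmd5, a chaperone that keeps the 19S base from joining the core early, was lower with a difference of -0.53 ± 0.12 (10.50 against 11.04, adjusted p = 0.001), and so was Psmd10 (-0.27). Psmc3ip, no subunit, was higher by 0.40.

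The promoter matches can be set beside these calls. CCGGAAG was in 7 of 11 promoters of higher members, 2 of 7 of lower ones (Psmc6 and Psmd6) and 1 of 11 of those not called (Psmd13). CTTCCG was in 10, 3 and 4 of them, and GTGACG in 1, 4 and 3. These counts carry no test, and no promoter was at hand for Psmd7, Psmd3 and Psmb2 among the higher members.

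**Figure D4:**
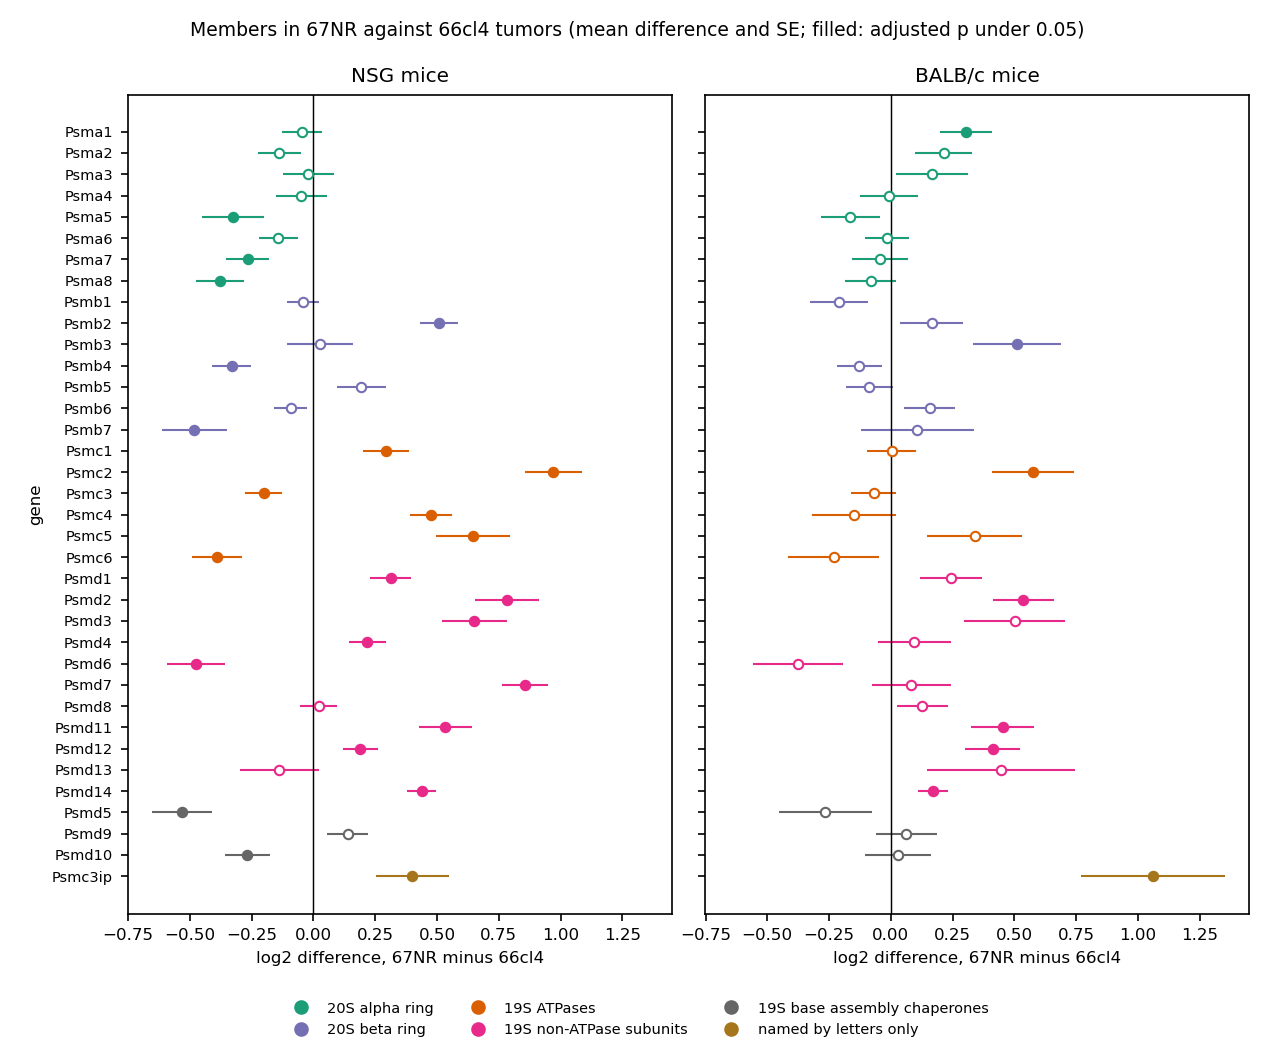
Difference of mean log2 level, 67NR minus 66cl4, for each member in BALB/c and in NSG mice (points with bars of 1 SE; filled where the adjusted p was under 0.05; 9 tumors of each line per host). In NSG mice 12 of 17 subunits of the 19S cap are filled and above 0, and 5 of 15 genes of the 20S core are filled and below it.

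In BALB/c mice 8 members were higher and 0 lower in 67NR tumors, where 13.4% of all genes were higher and 14.6% lower. Psmc3ip was higher by 1.06 ± 0.29 (SE, n = 9 and 9, 9.62 against 8.56, adjusted p = 0.0108). Psmc2 was at 10.94 to 12.45 in 67NR and 10.99 to 11.9 in 66cl4 tumors, higher by 0.58 ± 0.17 (adjusted p = 0.0149), with overlap. Psmd2 was at 10.52 to 11.58 and 10.18 to 10.84, higher by 0.54 ± 0.12 (adjusted p = 0.00297). Psmb3 was higher by 0.51 ± 0.18 (12.90 against 12.39, adjusted p = 0.0404), Psmd11 by 0.45 ± 0.13 (adjusted p = 0.0137), Psmd12 by 0.41, Psma1 by 0.30 and Psmd14 by 0.17. The 17 subunits of the 19S cap had 5 calls and a median of 0.17, and the 15 genes of the 20S core 2 calls and a median of -0.01. The call of each of Psmc3ip, Psmc2, Psmd2, Psmd11 and Psmd12 held whichever of the 18 tumors was left out, that of Psma1 in 9 of 18 cases and those of Psmb3 and Psmd14 in 6. Among BPTF KD tumors alone 1 member was called (14% of all genes) and among controls alone 9 (26.1%), and with the 3′ minus 5′ difference of actin and Gapdh, a measure of RNA quality, as a covariate 13 (10 higher, 3 lower; 35.8% of all genes). Leaving out the BPTF KD 67NR tumor with muscle markers gave 11 calls, and leaving out any 1 control 67NR tumor, control 66cl4 replicate 3 or BPTF KD 66cl4 replicate 3 gave 5.

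Per tumor, the mean deviation of the 17 subunits of the 19S cap was above 0 in all 6 control 67NR tumors (0.14 to 0.23 in BALB/c and 0.24 to 0.34 in NSG mice). In every 66cl4 tumor it was below 0, from -0.28 to -0.01. BPTF KD 67NR tumors ran from -0.37 to 0.22 in BALB/c mice, where replicates 1 and 3 were at -0.22 and -0.37, and from -0.16 to 0.29 in NSG mice. The 20S core showed no such order, with group means from -0.22 to 0.10.

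**Figure D5:**
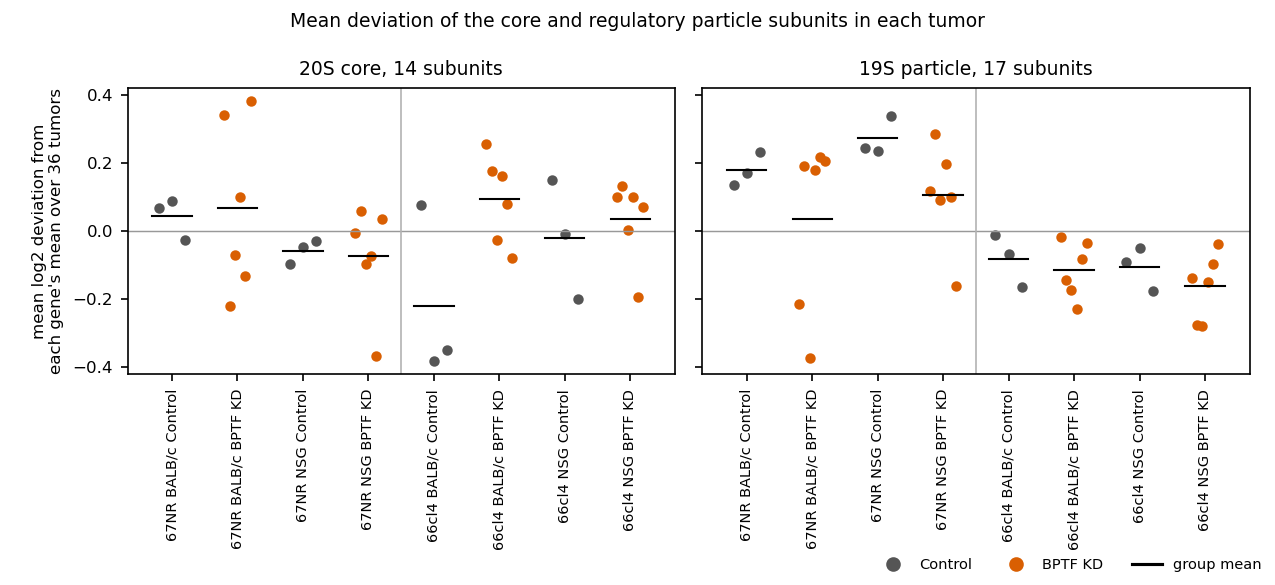
Mean deviation per tumor (log2 units, from each gene's mean over all 36 tumors) of 14 subunits of the 20S core and of 17 subunits of the 19S cap in the 8 groups, points for tumors and lines for group means. The cap is below 0 in every 66cl4 tumor and above 0 in the 67NR controls; for the core the control 66cl4 tumors of BALB/c mice lie lowest on average, at -0.22.

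Other genes of the pathway were compared between the lines in the same fits. Usp14, a deubiquitinase bound to the 19S cap, was higher in 67NR tumors by 2.81 ± 0.25 in BALB/c and 2.66 ± 0.13 in NSG mice, and the shuttle receptor Ubqln2 by 2.46 ± 0.22 and 2.66 ± 0.17 (adjusted p = 1.58e-07, 6.18e-12, 2.08e-07 and 2.96e-10), both with 9 of 9 67NR tumors above all 66cl4 tumors in each host. Of 7 shuttle receptors and p97 genes 3 were higher in BALB/c and 5 in NSG mice, and 0 lower. Of 4 activator and inhibitor genes 1 was higher in BALB/c mice, and 2 were higher and 2 lower in NSG mice. Psme4, the PA200 activator, was higher in both (0.63 and 0.92). Of 5 assembly chaperones of the core 2 were lower in BALB/c mice, and 3 lower and 2 higher in NSG mice. Of 8 subunits of the CCT chaperonin, another large ring complex, 1 was higher and 1 lower in BALB/c mice, and 5 were higher in NSG mice. Of 8 heat shock genes 1 was higher and 2 lower in BALB/c mice, and 4 were higher and 1 lower in NSG mice. Of 3 genes of the Nfe2l1 route 0 passed in BALB/c mice, and Nfe2l2 was higher and Ngly1 lower in NSG mice. Psmb8, Psmb9 and Psmb10 were all lower in 67NR tumors of NSG mice (-1.50, -0.56 and -0.42), and none passed in BALB/c mice.

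Cell type markers moved with the line as well. Of 9 proliferation genes 5 were higher in 67NR tumors in each host, with medians of 0.41 in BALB/c and 0.34 in NSG mice. Of 6 muscle markers 6 were lower in 67NR tumors of BALB/c mice, with a median of -4.01, and 1 was higher in NSG mice. Of 6 macrophage markers 3 were lower in BALB/c and 5 in NSG mice, and all 4 endothelial markers were higher in both. Fibroblast markers were lower in 2 of 6 in BALB/c mice and higher in 4 of 6 in NSG mice. Of 5 T cell markers 2 were higher in BALB/c and 1 lower in NSG mice. Bptf itself was higher by 0.62 in BALB/c mice (not called) and 0.65 in NSG mice (called). The part of these in the members' differences was not tested.

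The third question was how tumors in BALB/c mice differed from tumors in NSG mice. These comparisons use the same tumors as those between lines. In 67NR tumors 2 members were higher and 2 lower in BALB/c mice, where 13.3% of all genes were higher and 10.8% lower, and after another quantile normalization or with array medians subtracted it was 1 higher and 2 lower. Psma8 was at 4.94 to 5.57 in BALB/c and 4.45 to 5.01 in NSG mice, higher by 0.43 ± 0.09 (SE, n = 9 and 9, adjusted p = 0.00308), at a signal among the dimmest. Psma1 was higher by 0.23 ± 0.08 (12.40 against 12.18, adjusted p = 0.0467), a call that held in 5 of 18 cases with a tumor left out. Psmc4 was at 9.98 to 11.57 and 11.28 to 11.81, lower with a difference of -0.61 ± 0.17 (adjusted p = 0.0124), while its other probe set gave 0.08, not called. Psmd7 was at 9.14 to 10.59 in BALB/c and 9.9 to 10.81 in NSG mice, lower with a difference of -0.56 ± 0.16 (adjusted p = 0.0149), and its dimmer probe sets gave 0.14 and 0.07. With the 3′ minus 5′ covariate Psmd7 (-0.24, adjusted p = 0.168) and Psma1 (0.11, adjusted p = 0.336) were not called.

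In 66cl4 tumors 3 members were higher and 4 lower in BALB/c mice, where 13.2% of all genes were higher and 12.9% lower. Another quantile normalization gave 5 higher and 4 lower members, and subtracting array medians 2 and 4, with 1171 genes higher and 2332 lower in all. Psmc2 was at 10.99 to 11.9 in BALB/c and 10.61 to 11.36 in NSG mice, higher by 0.49 ± 0.12 (SE, n = 9 and 9, adjusted p = 0.0053), and by 0.41 in its other probe set. Psmb2 was higher by 0.27 ± 0.07 (adjusted p = 0.00712) and Psmd14 by 0.22 ± 0.06 (adjusted p = 0.0126). Psmd13, a lid subunit, was at 8.63 to 9.65 in BALB/c and 9.61 to 10.23 in NSG mice, lower with a difference of -0.66 ± 0.11 (adjusted p = 0.00028), and of -0.56 in its other probe set. Psmc3ip was lower as well, with a difference of -0.67 ± 0.15 (8.56 against 9.24, adjusted p = 0.00251), as were Psmd5 at -0.35 ± 0.11 (adjusted p = 0.0251) and Psmc6 at -0.35 ± 0.10 (adjusted p = 0.0183). Leaving out BPTF KD replicate 5 of the NSG tumors gave 12 members called in place of 7. The median over the members was 0.02 in 67NR and -0.01 in 66cl4 tumors, and over all genes 0.04 and 0.00.

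All 3 immunoproteasome genes were higher in BALB/c mice in both lines. Psmb9 differed by 2.19 ± 0.28 in 67NR and 1.29 ± 0.19 in 66cl4 tumors, Psmb8 by 1.83 ± 0.32 and 0.57 ± 0.19, and Psmb10 by 1.06 ± 0.24 and 0.92 ± 0.10. Their adjusted p-values were 3.81e-05, 8.02e-05, 0.000499, 0.0349, 0.00378 and 4.17e-06 in that order. Psmb5, Psmb6 and Psmb7 differed by -0.05, 0.23 and 0.38 in 67NR and 0.23, -0.02 and -0.21 in 66cl4 tumors, and none passed (adjusted p from 0.065 to 0.868), but with the 3′ minus 5′ covariate Psmb6 was called higher in 67NR and Psmb5 in 66cl4 tumors. Psme1, a subunit of the interferon-induced activator PA28, was higher by 0.47 ± 0.07 in 66cl4 tumors (adjusted p = 0.000154) and by 0.33 ± 0.17 in 67NR tumors (adjusted p = 0.168). Of the CCT chaperonin 5 of 8 were higher in 66cl4 and 1 lower in 67NR tumors of BALB/c mice. The chaperone gene Hspa8 was lower with a difference of -0.34 ± 0.06 in 67NR tumors (adjusted p = 0.000701).

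Cell type markers differed between hosts. The 5 T cell markers were all higher in BALB/c mice, with medians of 3.06 in 67NR and 1.92 in 66cl4 tumors. All 6 muscle markers were higher in 66cl4 tumors of BALB/c mice, with a median of 4.59, and none was called in 67NR tumors. Of 6 fibroblast markers 4 were lower in 67NR and 4 higher in 66cl4 tumors. The 3′ minus 5′ difference of the Gapdh control probe sets was 0.14 to 0.52 in BALB/c and -0.12 to 0.17 in NSG tumors. That of actin overlapped, at 0.73 to 2.11 in BALB/c and 0.81 to 1.48 in NSG tumors, and its mean was lower in BALB/c than in NSG mice among 66cl4 controls (1.12 against 1.28). With the 3′ minus 5′ difference of actin and Gapdh as a covariate, 13 members were called in 67NR tumors (6 higher, 7 lower; 33.2% of all genes) and 21 in 66cl4 tumors (11 higher, 10 lower; 37.5% of all genes). These held 2 of the 4 members called without it in 67NR and 7 of 7 in 66cl4 tumors. The part of cell types in the members' differences was not tested.

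The last question was whether the BPTF KD differences differed between hosts or lines. None of the 36 members passed in the 4 tests of the difference itself, where 0.0% of all genes were called between hosts in 67NR tumors, 0.0% between hosts in 66cl4 tumors, 0.0% between lines in BALB/c mice and 0.96% between lines in NSG mice. At an unadjusted p under 0.05 there were 1, 3, 3 and 1 members in that order, against 6.89%, 11.9%, 9.64% and 10.1% of all genes. Psmb5 had the smallest p between hosts in 67NR tumors, with its BPTF KD difference 0.63 ± 0.22 higher in BALB/c than in NSG mice (adjusted p = 0.562). Between hosts in 66cl4 tumors it was Psmd13, at 0.49 ± 0.21 (adjusted p = 0.403). Psmd12 had it between lines in BALB/c mice, at -0.51 ± 0.21 for 67NR minus 66cl4 (adjusted p = 0.496), and Psmd4 between lines in NSG mice, at -0.32 ± 0.14 (adjusted p = 0.458). In the opposite direction it was Psmc4 (-0.37), Psmc5 (-0.39), Psmb5 (0.36) and Psmc4 (0.25) in that order. A p that misses the threshold does not show that the differences were alike.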

How the data were processed

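RNA of 36 tumors was measured on Affymetrix mouse arrays. The authors cut away necrotic tissue before extracting total RNA, and the deposited log2 values per probe set had been made with RMA (version not given in the sources used here), a tool listed in the submitters' processing notes. Of 22690 probe sets, 20393 carried 1 symbol, 691 several and 1606 none. RefSeq names replaced older symbols by Entrez ID for 20364 of them. Where several probe sets named 1 gene alone, the brightest on average stood for it, which left 12394 genes. No filter or further normalization was used. Array medians ran from 7.03 to 7.21, and the number of arrays limits the precision. Levels of different probe sets are not comparable.

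Groups came from the labels. BPTF KD tumors were compared with controls with limma 3.58.1 in R 4.3.3 in fits of 9 tumors. Lines (67NR minus 66cl4) and hosts (BALB/c minus NSG) were compared in fits of 18 tumors with the label as a term, and differences of the BPTF KD difference as interactions. All p-values were adjusted by Benjamini-Hochberg over all genes, and called means an adjusted p under 0.05. Only the fits of BPTF KD against control tumors were tried on simulated data, in which genes varied independently. The fits of lines, hosts and interactions were not. Full values were given for up to 5 called members per direction by size, or else for the smallest p in each direction. Psmb5 to Psmb10 and the other pathway genes with the smallest p were added, up to 2 per comparison, with further ones named by place in the pathway. Some members and tumors outside this rule were named after their values were seen. The members, lists and rule were chosen with earlier results of these data known.

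Alternatives were array weights, subtracting array medians, a second quantile normalization, a filter on the dimmest 25% of genes, a pooled fit of the 36 tumors, the t-test of the study's methods, every probe set counted, another probe set where a gene's own can bind related transcripts, a replicate block, the 3′ minus 5′ difference of actin and Gapdh as a covariate, control or BPTF KD tumors alone, and each tumor left out. Tables and figures were made in Python 3.11.15 (numpy 2.4.6, pandas 2.3.3, matplotlib 3.10.9). Genes of the ubiquitin list were not analysed here.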

Additional observations from a re-analysis of the deposited data

Results flagged for a closer look

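All 36 members, the 3 immunoproteasome genes and 4 set means were tested in the 4 groups of 6 tumors. In 15 of these 172 cases the lowest or highest tumor was farther from the others than Dixon's 95% critical value for 6 samples allows. Most of the 15 lay in 3 tumors. The cases share tumors, and some set means hold the same members, so they are not independent and the count cannot be set against 1 in 20. The share over all genes was not computed.

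BPTF KD replicate 5 of the 66cl4 tumors in NSG mice was flagged as lowest in 5 genes of the 20S core. It was at 12.38 in Psma2 (others 12.71 to 12.87), 12.95 in Psma3 (13.36 to 13.53), 12.5 in Psma4 (12.95 to 13.13), 12.69 in Psmb1 (12.86 to 12.93) and 13 in Psmb4 (13.25 to 13.39). Without a flag, this tumor was also the lowest of its group in Psma6, Psma7, Psmb3 and Psmb7. BPTF KD replicate 5 of the 67NR tumors in NSG mice was flagged as lowest in Psma6 at 12.46 (others 12.83 to 13.03), in Psmd6 at 11.14 (11.7 to 12.03) and in the mean deviation of 14 subunits of the 20S core at -0.37 (-0.10 to 0.06). It was also lowest without a flag in further core genes, among them Psma2, Psma3, Psma4 and Psmb3. BPTF KD replicate 6 of the same group was flagged as lowest in Psmc2 at 11.4 (others 11.88 to 11.97), Psmd1 at 10.94 (11.46 to 11.72) and Psmd7 at 9.9 (10.44 to 10.7), and as highest in Psmd10 at 9.77 (9.09 to 9.3).

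In 67NR tumors of BALB/c mice BPTF KD replicate 1 was flagged as lowest in Psmc1 at 9.38 (others 9.88 to 10.12) and Psmd8 at 10.63 (11.3 to 11.61), and BPTF KD replicate 3 in Psmd13 at 7.56 (9.6 to 10.45).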

How the results depend on the processing

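Of the members' counts of calls, these moved by over 1.5 times, and the cause was not tested. With array weights the BPTF KD comparisons gave 1 (67NR in BALB/c), 2 (67NR in NSG), 13 (66cl4 in BALB/c) and 1 (66cl4 in NSG) in place of 0 (9.05%, 15.5%, 25.2% and 11.2% of all genes), the comparison of lines in BALB/c mice 13 in place of 8 (38.7% of all genes), that of hosts in 66cl4 tumors 13 in place of 7 (32.9%), and the interactions 3 and 1 between hosts (67NR and 66cl4) and 8 between lines in BALB/c mice in place of 0 (14.5%, 6.22% and 17.7%). The methods' t-test at an unadjusted p under 0.01 gave 1, 1 and 1 members in the first 3 BPTF KD comparisons, and 0 after adjustment. With the RNA covariate 13 were called between lines in BALB/c mice, 13 between hosts in 67NR tumors (in place of 4) and 21 in 66cl4 tumors. Control tumors alone gave 15 between lines in NSG mice (in place of 24) and 1 and 1 between hosts. BPTF KD tumors alone gave 1 between lines in BALB/c mice, and 2 (67NR) and 3 (66cl4) between hosts. Array medians subtracted gave 5 between lines in BALB/c mice, the filter on dim genes 2 between hosts in 67NR tumors, and the fit of all 36 tumors 3 between hosts in 66cl4 tumors.

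With 1 tumor left out, counts ran from 0 to 12 in 66cl4 BPTF KD tumors of BALB/c mice (12 without control replicate 1), 0 to 0 in the other BPTF KD comparisons and the interactions, 5 to 11 between lines in BALB/c mice, 21 to 25 in NSG mice, 3 to 5 between hosts in 67NR tumors and 6 to 12 in 66cl4 tumors. Of 26 results of named members, none changed direction under the alternatives run (the filter on dim genes left 2 results of Psma8 untested, and the change of probe set applied only to genes read from one that can bind related transcripts). Between hosts in 67NR tumors, however, the other probe sets of Psmc4 (0.08) and Psmd7 (0.14 and 0.07) had the opposite sign. Among 17 members with several probe sets, signs disagreed in 4 (BALB/c) and 7 (NSG) between lines. Between hosts they disagreed in 9 (67NR) and 7 (66cl4). With a tumor left out the calls of the 26 results held 441 times and were lost 27 times, with BPTF KD tumors alone 15 held, and with controls alone 14.

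The deviations of same-numbered control and BPTF KD tumors correlated at -0.451 to 0.268. Differently numbered tumors were not compared, so these values cannot show whether replicate numbers pair the tumors. With a replicate block the counts were 0 in all BPTF KD comparisons and interactions, 6 and 24 between lines (BALB/c, NSG) and 5 and 8 between hosts (67NR, 66cl4). Over all genes the block gave 386 higher and 299 lower in BPTF KD 67NR tumors of NSG mice, in place of 73 and 68. Of the named results Psmb3 between lines in BALB/c mice lost its call (adjusted p = 0.0518).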
